A study of Mus musculus with 3 samples.

Results

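siCdk1 was 1 of 33 siRNA treatments profiled by RNA sequencing in mouse embryonic fibroblasts (MEFs) early in reprogramming. It was represented by 3 libraries, chosen by their names in the deposited tables, out of 127 libraries analysed and 129 with counts. The main comparison was with 3 libraries that received a non-targeting siRNA (nt), and 5 mock-transfected libraries (Mock) served as a second control. All 11 libraries came from wild-type BL6 MEFs reprogrammed at passage 2. They carried a lentiviral cassette for Oct4, Sox2, Klf4 and c-Myc under doxycycline control together with the transactivator rtTA. Per the methods of the study, siRNA pools at 40 nM were transfected after transduction, the cells were re-plated and induced a day later, and RNA was taken on day 6 of reprogramming. The medium of every group held doxycycline, a GSK3 inhibitor, a TGF-beta receptor inhibitor, ascorbic acid and LIF, so that the control cells shared these agents. The siRNAs were given before induction, and the state of the knockdown on the day of harvest was not measured apart from the Cdk1 reads themselves. The Mock libraries come under a name that 2 columns of a replicate share, and the labels do not say whether these are separate wells or repeat libraries of 1 sample. They were counted as 5 libraries. The other libraries were 95 of 32 further siRNAs and 21 of an untransfected time course (Day00 to Day06), which was re-plated without transfection.

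CDK1 is the cyclin-dependent kinase that drives entry into mitosis. It acts with B-type and A-type cyclins, is held inactive by the kinases WEE1 and PKMYT1 and is switched on by CDC25 phosphatases. Its substrates include condensins, lamins and spindle proteins, and its activity ends when the anaphase-promoting complex destroys the cyclins. In the first days of reprogramming, fibroblasts divide rapidly, lose mesenchymal genes and later acquire epithelial genes, a mesenchymal-to-epithelial transition (MET). The comparison asked how the transcriptome of such cells differed after transfection with siRNAs against Cdk1.

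The library of the study lists 2 siRNAs against Cdk1 (under its older symbol Cdc2a), while its text states that 3 were pooled for each gene. The guide strands are shown because they define the treatment, 5′ to 3′, with the seed (bases 2 to 8 of the guide, here in capitals) marking the part that can also pair with other mRNAs.
siRNA 60529 guide: uCAAAGAUgagauacagcctg
siRNA 160116 guide: cAGCCAGUuugauuguucctt

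Cdk1 (ENSMUSG00000019942) lies on the minus strand of chromosome 10 (chr10:69335146-69352938, GRCm38) and has 8 exons. The target of siRNA 60529 was found in exon 4 (chr10:69345137-69345155, bases 353 to 371 of the transcript). The target of siRNA 160116 was found in exon 5 (chr10:69342593-69342611, bases 547 to 565). Both sites are in the coding sequence, matched all 19 pairing bases in 6 of 7 annotated Cdk1 transcripts and matched 0 other genes. Matches to the seed were counted in the 3′ untranslated regions of the 2418 tested genes that have one. For siRNA 60529 the seed match occurred in 18.1% of all these genes, in 2 of 17 genes (11.8%) lower in siCdk1 than in nt and in 9 of 43 genes (20.9%) higher in siCdk1. For siRNA 160116 the figures were 15.1% of all, 1 of 17 lower genes (5.9%) and 10 of 43 higher genes (23.3%). A seed match is a description of these letters and not evidence of binding.

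The knockdown itself could not be read from these data, because Cdk1 was too sparsely counted. The siCdk1 libraries held 1, 2 and 1 Cdk1 counts in replicates 1, 2 and 3, the nt libraries 1, 3 and 1, and each of the 5 Mock libraries 1. The groups overlapped. Had Cdk1 taken the share of counts it took in all remaining transfected libraries, replicate by replicate, 5.80 counts would have been expected in siCdk1 and 4 were found, a ratio of 0.689 with an exact 95% Poisson interval of 0.188 to 1.76 that covers counting error only. In the second fit, which adds listed genes below the abundance filter, the log2 fold change against nt was -0.16 ± 1.01 (SE, n = 3 and 3, adjusted p = 0.983), and it was 0.17 without replicate 2. A decrease of Cdk1 mRNA was not detectable at this depth, and the label siCdk1 is used here as given.

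The siCdk1 libraries held 73279, 78094 and 109987 counts, the nt libraries 75100 to 143156 and the Mock libraries 38925 to 83089. Each count is a molecule tagged at the 3′ end of a transcript by a unique molecular identifier (UMI). Of 50507 genes in the table, 3013 passed the filter on low counts and were tested. Levels are given in CPM, relative to the scaled total of the tested genes in a library. The study describes the transfections as done in triplicate, and nothing in the labels says whether the replicates were separate cell preparations. P-values therefore measure only a spread between libraries, and that spread was estimated over all 127 libraries analysed. Fewer cells of a type and less RNA per cell cannot be told apart in bulk samples.

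The genes higher in siCdk1 than in nt included the matrix genes Sparc, Timp2 and Thbs1, the actin-associated genes Acta2, Cald1 and Lpp and the surface protein genes Thy1 and Cd44. The lower genes included the glycolytic enzyme gene Pgk1, the hypoxia-inducible gene Bnip3 and several repeat-derived genes and gene copies. In all, 78 of 3013 tested genes (2.59%) differed between siCdk1 and nt at an adjusted p below 0.05, of which 46 (1.53%) were higher and 32 (1.06%) lower. The median log2 fold change of all tested genes was -0.02, and 459 genes had an unadjusted p below 0.05. Of the higher genes 44 of 46, and of the lower genes 32 of 32, had the same sign in all 3 replicates. The calls were made from these same libraries, so this agreement is partly set by the calls. The replicate number, which marks the sequenced pool, was a block in this fit. Without the block 24 genes were called, 19 higher and 5 lower, and without replicate 3, the deepest, 14 genes were called. The split was also sensitive to scaling, with 59.0% of calls higher as reported against 72.7% of 110 calls with RLE scaling (edgeR) and 73.1% of 104 with DESeq2.

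**Figure D1:**
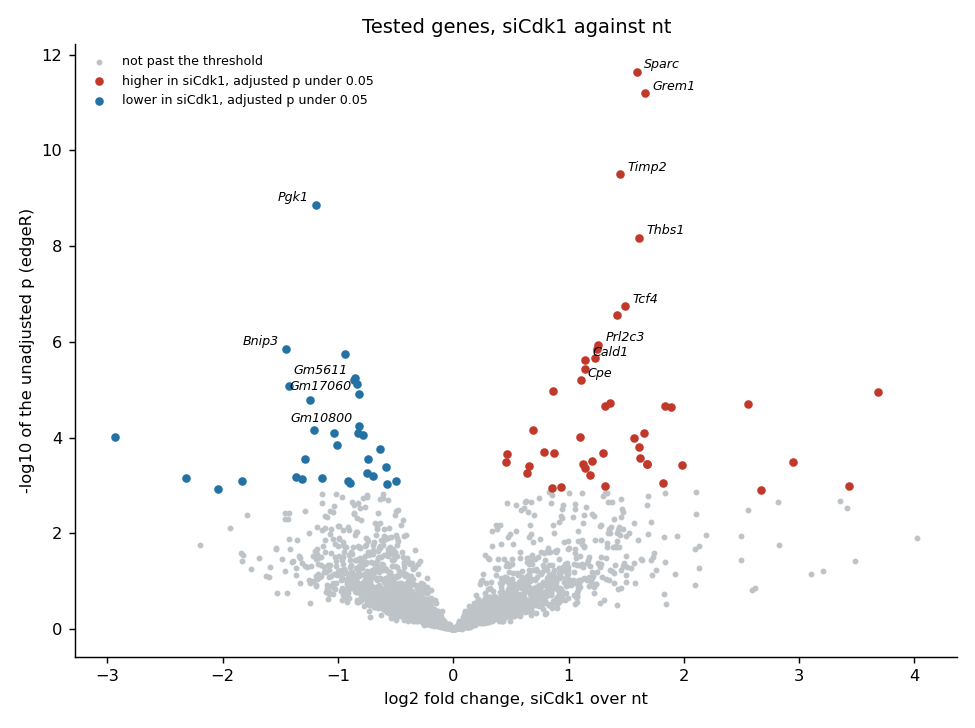
Log2 fold change of siCdk1 over nt (x axis) against -log10 of the unadjusted edgeR p (y axis) for the 3013 tested genes, each point a gene and coloured points those with an adjusted p below 0.05. The 46 higher genes are led by Sparc and Grem1 and the 32 lower genes by Pgk1.

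Sparc, which encodes a collagen-binding matrix protein of mesenchymal cells (chr11:55394500-55423183, minus strand), had the smallest p. Its level was 1311, 1137 and 1243 CPM in the siCdk1 libraries and 399.7, 478.6 and 359.5 CPM in the nt libraries. The Mock libraries lay at 516.1, 377.7, 518.9, 372.4 and 358.2 CPM. Every siCdk1 library was thus above every control library. The log2 fold change was 1.59 ± 0.22 against nt (SE, adjusted p = 6.85e-09) and 1.55 against Mock (adjusted p = 9.9e-10).

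Grem1 encodes a secreted antagonist of bone morphogenetic proteins (chr2:113746164-113758646, minus strand). Its level was 1079, 981.1 and 1101 CPM in siCdk1, 449.6, 194.4 and 359.5 CPM in nt, and 180.6 to 309.0 CPM in Mock. The groups did not overlap, and the spread within siCdk1 (1054 ± 63.9 CPM, SD, n = 3) was small beside the difference. The log2 fold change was 1.66 ± 0.23 against nt (SE, adjusted p = 9.59e-09) and 2.16 against Mock (adjusted p = 1.82e-13). Among tested genes Grem1 had the smallest p in the contrast with the rest of the screen. The mean was the highest of the 33 siRNAs, the 95 other siRNA libraries ranged from 67.5 to 1006 CPM with a median of 268.2 CPM, and the log2 difference from their equally weighted mean was 1.88 ± 0.15 (SE, adjusted p = 3.34e-25).

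Further matrix genes followed. Timp2, an inhibitor of matrix metalloproteinases, measured 1095, 1215 and 1202 CPM in siCdk1 against 349.7, 568.3 and 384.0 CPM in nt (log2 fold change 1.44 ± 0.22, SE, adjusted p = 3.15e-07). Thbs1, which encodes the matrix glycoprotein thrombospondin, measured 896.1, 451.6 and 828.5 CPM against 366.4, 269.2 and 147.0 CPM (1.61 ± 0.27, adjusted p = 4.02e-06). Both were separate from nt in every library, but Thbs1 in replicate 2 of siCdk1 lay below its highest Mock library at 516.1 CPM. The fibrillar collagen gene Col1a1 rose by 1.35 ± 0.31 on the log2 scale (adjusted p = 0.00235), Timp3 by 1.68 ± 0.46 (adjusted p = 0.02), Fbln2, a fibulin of elastic fibres and basement membranes, by 2.56 ± 0.59 (adjusted p = 0.00235), and Nid1, the basement membrane linker nidogen, by 1.18 ± 0.34 (adjusted p = 0.0303). Without replicate 3, Timp2 was still called and Thbs1, Col1a1, Timp3, Fbln2 and Nid1 were not, and the value of Nid1 was 0.45. Timp3 and Nid1 also lost their call without the block.

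Several called genes encode contractile and cytoskeletal proteins, a grouping made after their values were seen. Acta2, the smooth muscle actin of contractile fibroblasts, measured 265.5, 109.0 and 323.3 CPM in siCdk1 and 83.3, 59.8 and 57.2 CPM in nt (1.89 ± 0.44, adjusted p = 0.00249). Cald1, which encodes the actin-binding caldesmon, rose by 1.15 ± 0.24 (adjusted p = 0.000551), Lpp, a focal adhesion protein, by 1.25 ± 0.25 (adjusted p = 0.000425), and Flna, the actin cross-linker filamin A, by 1.65 ± 0.41 (adjusted p = 0.00728). The cytoplasmic actins changed by less, Actg1 by 0.79 ± 0.21 (adjusted p = 0.0146) and Actb by 0.65 ± 0.18 (adjusted p = 0.0211). Palld, Myl9 and Cnn1, which encode the actin scaffold palladin, a regulatory myosin light chain and calponin, were scarce in the controls. Palld had 9, 5 and 14 counts in siCdk1 and 0, 1 and 1 in nt, a ratio of 16.0 per count sequenced (95% counting interval 4.03 to 138.5). Myl9 and Cnn1 each had 13 counts in siCdk1 and 1 in nt, a ratio of 14.8 (interval 2.23 to 630.7). Palld and Myl9 passed the test against nt (adjusted p = 0.00161 and 0.0419), and Cnn1 did not (adjusted p = 0.0625). Cnn1 was at 0 counts in all 5 Mock libraries and therefore at least 4.38-fold higher in siCdk1, taking a floor of 3 counts over the Mock group (adjusted p = 0.0177). Without replicate 3, Lpp was the 1 gene of this group still called, and Actg1, Actb and Myl9 also lost their call without the block.

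Called genes for surface proteins included Thy1, a GPI-anchored glycoprotein of fibroblasts (chr9:44043384-44048579), and Cd44, the hyaluronan receptor (chr2:102811141-102901665). Thy1 measured 497.8, 654.1 and 525.4 CPM in siCdk1 against 216.5, 239.3 and 179.7 CPM in nt (1.42 ± 0.27, adjusted p = 0.000118), and the highest Mock library reached 461.2 CPM. Cd44 measured 564.2, 498.3 and 646.6 CPM against 283.1, 119.6 and 310.4 CPM (1.23 ± 0.25, adjusted p = 0.000542), and the Mock libraries lay between 115.3 and 274.7 CPM. The siCdk1 mean was the highest of the 33 siRNAs for both genes. Cdh11, a cadherin of mesenchymal cells, rose by 1.62 ± 0.44 (adjusted p = 0.0176). Ptgs1, which encodes a cyclooxygenase, had 6, 6 and 11 counts in siCdk1 against 0, 0 and 3 in nt, which is 8.75 times as many per count sequenced (counting interval 2.65 to 45.5, adjusted p = 0.0193). Cdh11 and Ptgs1 were not called without replicate 3, nor was Cdh11 without the block.

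**Figure D2:**
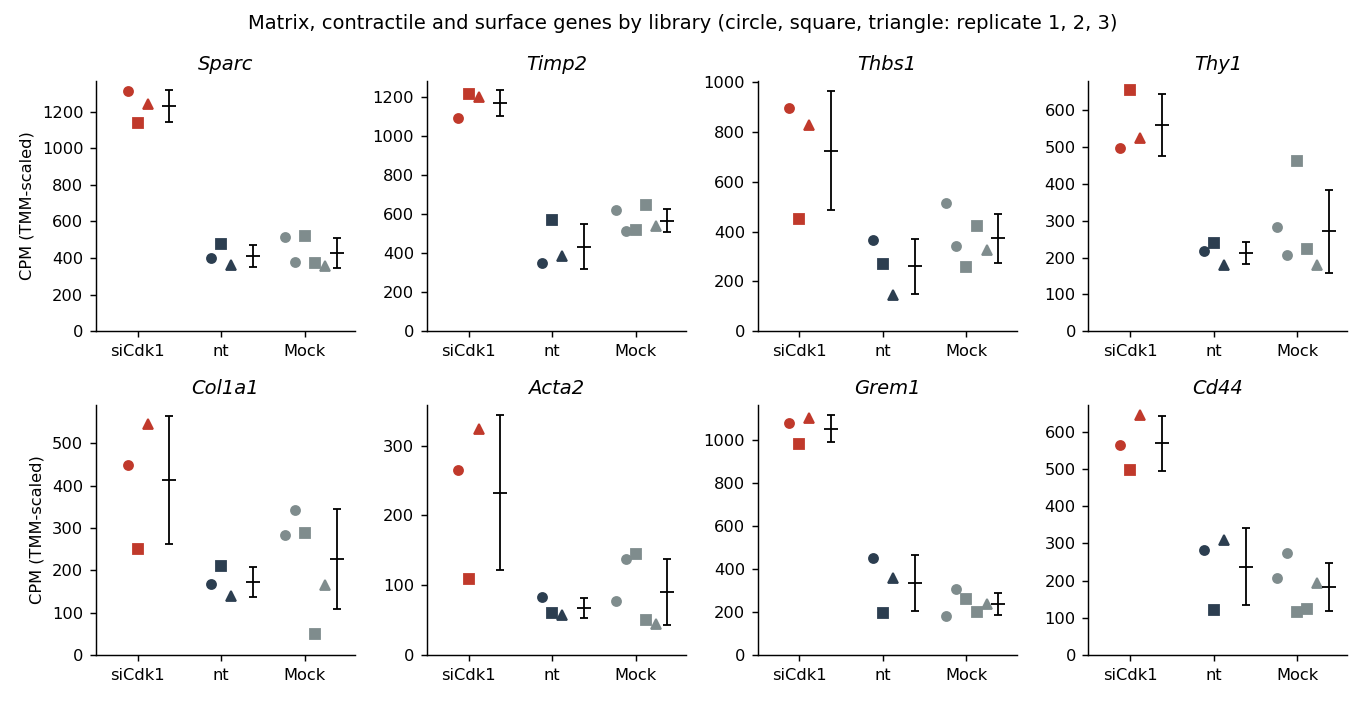
Levels in CPM (y axis, linear and starting at 0) of matrix, contractile and surface genes in each siCdk1, nt and Mock library (x axis), with a point per library, its shape the replicate and a bar at the group mean. For Sparc and Grem1 the siCdk1 libraries (1137 to 1311 and 981.1 to 1101 CPM) lie above every control library.

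Of the other higher genes, those of smallest p were Tcf4, the proliferin genes, Cpe and Hmga2. Tcf4, a bHLH partner of E-box factors, measured 663.8, 482.8 and 616.3 CPM in siCdk1 against 133.2, 269.2 and 212.4 CPM in nt (1.49 ± 0.28, adjusted p = 9.13e-05). The proliferin genes Prl2c3 and Prl2c2, which encode secreted prolactin-related factors made by growing fibroblasts, rose by 1.26 ± 0.25 and 1.14 ± 0.24 (adjusted p = 0.000425 and 0.000801). These genes are near-identical copies, so their counts were also summed, and the Prl2c sum was 1594 ± 490 CPM in siCdk1, 713 ± 151 CPM in nt (SD, n = 3 each) and 1068 ± 230 CPM in Mock (SD, n = 5). Cpe, a peptide-processing carboxypeptidase, rose by 1.10 ± 0.24 (adjusted p = 0.00113), and Hmga2, an architectural chromatin protein of embryonic fibroblasts, by 0.87 ± 0.19 (adjusted p = 0.00161). Igf2, Inhbb, Id3, Jak1 and Bdnf also passed (adjusted p = 0.00808 to 0.0488). Igf2, Inhbb, Id3, Jak1, Bdnf, Prl2c2 and Cpe lost their call without replicate 3 and without the block, and Hmga2 lost it without the block. Igf2 shares all of its 40-base words near the 3′ end with the annotated gene Gm49394, so that its count is uncertain. Among the 46 higher genes 16 overlap an exon of a gene on the other strand, as do 25.9% of all tested genes, and whether strand was used in counting is not given in the sources used here.

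A list of 37 mesenchymal and matrix genes, which the study and earlier results of these data had helped to choose, summarised this pattern. Of 31 tested members, 9 were higher in siCdk1 than in nt (Acta2, Col1a1, Myl9, Prrx1, Sparc, Thbs1, Thy1, Timp2 and Timp3) and 0 lower, beside 1.53% and 1.06% of all tested genes. The median log2 fold change of the 31 was 0.99, beside -0.02 for all tested genes, and 28 of the 31 were positive. Dcn, Lum and Postn were the 3 members with a negative value (-0.76, -0.99 and -0.73), and none of these passed the test. Against Mock, 7 members were higher and 2 lower, beside 1.33% and 1.99% of all tested genes. The median against Mock was 0.69 and did not move when Cnn1 was set to its bound. The lower members were the small leucine-rich proteoglycans Dcn (-1.09, adjusted p = 0.02) and Lum (-1.13, adjusted p = 0.049), so that the matrix genes did not all move one way. Without replicate 3, 3 members were called higher than nt.

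The summed level of the list was 8440 to 9830 CPM in siCdk1 (9017 ± 725, SD, n = 3), 4085 to 5579 CPM in nt (4816 ± 748, SD, n = 3) and 5329 to 6976 CPM in Mock (6034 ± 604, SD, n = 5). The siCdk1 range was above both controls, and nt was itself toward the low end of the screen, in which the 95 other siRNA libraries ran from 2794 to 14880 CPM with a median of 5895 CPM. By mean, siCdk1 ranked 5 of 33. Above it were siWdr5 at 14230, siBard1 at 10290, siEp300 at 9329 and siBrca1 at 9219 CPM, and sip53 followed at 8227 CPM. siBard1, siBrca1, siEp300 and sip53 did not differ from siCdk1 beyond the spread of their libraries (1510, 864, 1910 and 1560 CPM, SD). In the untransfected time course the list stood at 27380 CPM at Day00 and 11630 CPM at Day03. It stood at 9276 ± 158 CPM at Day04 and 7787 ± 1370 CPM at Day06 (SD, n = 3 each). The siCdk1 mean was nearest to that of Day04, but the Day06 libraries (6803 to 9347 CPM) overlapped the siCdk1 range. Transfected and untransfected cells were handled differently, and this position was not tested.

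**Figure D3:**
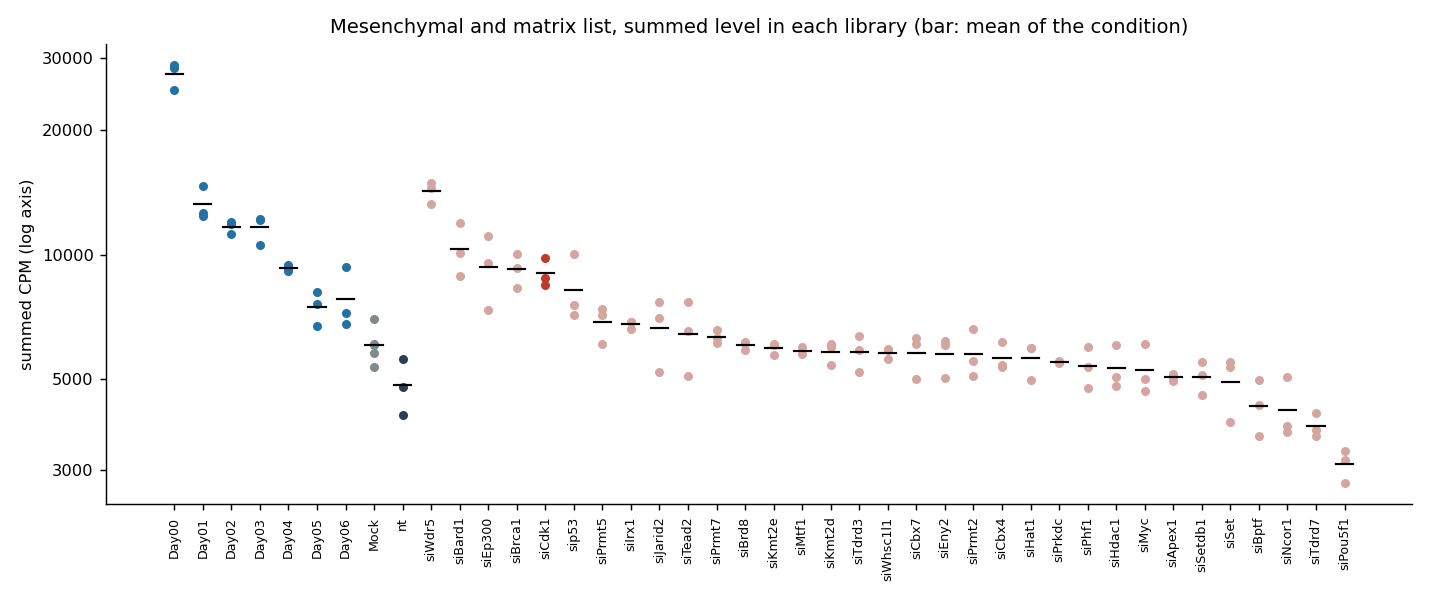
Summed level of the mesenchymal and matrix list (y axis, CPM on a log axis) in each library of every condition (x axis), with a point per library and a bar at the mean of the condition. The siCdk1 libraries (8440 to 9830 CPM) lie above those of nt (4085 to 5579 CPM) and Mock (5329 to 6976 CPM) and below those of Day00, whose mean is 27380 CPM.

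Single genes followed different courses over these days. Acta2 went from 4046 CPM at Day00 to 219.7 CPM at Day06, close to the siCdk1 mean of 232.6 CPM, and Cald1 from 4422 to 409.2 CPM, below the siCdk1 libraries. Grem1 went from 890.1 CPM at Day00 through 271.6 CPM at Day01 and 660.2 CPM at Day03 to 268.4 CPM at Day06, so the siCdk1 mean of 1054 CPM was above every day mean. Thy1 stayed between 254.4 and 376.8 CPM on all days, and its siCdk1 mean of 559.1 CPM was also above each of them.

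siCdk1 was also compared with the 3 siRNAs nearest to it in mesenchymal level, a choice made after these levels were seen. Brca1 and p53 act in the DNA damage response, and Ep300 is a histone acetyltransferase. Against siBrca1 17 genes differed (0.564% of those tested, 6 higher and 11 lower in siCdk1), against siEp300 26 (0.863%, 21 higher and 5 lower) and against sip53 43 (1.43%, 17 higher and 26 lower). Of the 31 mesenchymal genes 0 were called against siBrca1 (median -0.16), 1 was higher than in siEp300 (median -0.04), and 2 were higher and 2 lower than in sip53 (median 0.22). The 3 siRNAs were picked for a like sum of this list, so these counts are partly set by the choice. Grem1 was higher in siCdk1 than in each of the 3, by 0.93 ± 0.23 over siBrca1 (adjusted p = 0.0134), 1.06 ± 0.21 over siEp300 (adjusted p = 0.000317) and 2.00 ± 0.27 over sip53 (adjusted p = 1.03e-09). Its siCdk1 mean was already known to be the highest of the 33 siRNAs, so the direction of these differences was set beforehand. The smallest p against siBrca1 and sip53 was that of Gm26870, a repeat-derived lincRNA, which was lower in siCdk1 (log2 fold changes of -1.58 ± 0.19 and -1.63 ± 0.19, adjusted p = 5.36e-11 and 1.21e-11) and changed by 0.20 ± 0.20 against siEp300 (adjusted p = 0.797). Of the 13 genes of its family, 8 were lower than in siBrca1, 12 lower than in sip53 and 0 lower than in siEp300.

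Since the higher genes included actins and a myosin light chain, promoters were searched for the CArG box, the site of serum response factor, which drives many contractile genes. RefSeq promoters (GRCm38.p6, 250 bases before to 50 after the start) were given for 31 of the 46 higher and 16 of the 32 lower genes. An exact CArG box on either strand was present in 488 of 27025 promoters (1.8%), in 46 of 1921 tested genes (2.4%), in 3 of the 31 higher genes (9.7%; Actg1, Igf2 and Myl9) and in 0 of the 16 lower genes. The promoters of the actin gene and the myosin gene are shown 5′ to 3′ on the strand of the gene, with the match in capitals.
Actg1 (chr11:120348446-120348745, minus strand): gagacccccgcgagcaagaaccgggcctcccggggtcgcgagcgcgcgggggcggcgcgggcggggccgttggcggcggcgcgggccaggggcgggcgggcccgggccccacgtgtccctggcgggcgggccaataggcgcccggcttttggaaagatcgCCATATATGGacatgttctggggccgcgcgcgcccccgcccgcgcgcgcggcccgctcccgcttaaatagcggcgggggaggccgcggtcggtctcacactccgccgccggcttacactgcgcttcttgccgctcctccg
Myl9 (chr2:156775214-156775513, plus strand): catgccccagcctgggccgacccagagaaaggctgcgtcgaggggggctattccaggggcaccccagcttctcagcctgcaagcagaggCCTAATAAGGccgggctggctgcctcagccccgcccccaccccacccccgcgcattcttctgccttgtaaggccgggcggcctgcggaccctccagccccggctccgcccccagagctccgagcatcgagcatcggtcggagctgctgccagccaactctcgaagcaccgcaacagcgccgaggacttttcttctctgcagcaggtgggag
The match begins 90 bases before the start of Actg1 and 161 bases before that of Myl9. These matches describe letters and not occupied sites, and 3 genes are too few for a comparison of shares.

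No tested gene of the mitotic lists, in which CDK1 acts, passed edgeR's test against nt as fitted over all libraries. Of 25 genes of the CDK1 complex and its switch, 6 were abundant enough to test and 0 were called, with a median log2 fold change of 0.05 (0.48 without replicate 3 and 0.01 without replicate 1). At an unadjusted p under 0.05 there was 1 of the 6, beside 459 of all 3013 tested genes. This was Ccna2, which was called lower without replicate 2 (-1.75, adjusted p = 0.0461). Ccnb1, the main mitotic cyclin, measured 83.0, 233.6 and 181.9 CPM in siCdk1 and 83.3, 134.6 and 236.9 CPM in nt (0.02 ± 0.40, adjusted p = 0.985). Ccna2, the A-type cyclin of S phase and early mitosis, measured 49.8, 280.3 and 70.7 CPM against 149.9, 239.3 and 253.3 CPM (-0.81 ± 0.38, adjusted p = 0.272). The groups overlapped for both cyclins, and the spread between replicates was several times the difference for Ccnb1. The summed level of all 25 genes was 757.7 to 1075 CPM in siCdk1 and 816 to 1062 CPM in nt.

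Lists downstream of the kinase had 0 calls against nt in the same edgeR fit as well, and with 2.59% of all tested genes called, lists of this size could hold few. At an unadjusted p under 0.05 there were 459 of all 3013 tested genes. Among the lists these were 3 of 16 spindle genes (1 higher and 2 lower) and 1 of 11 kinetochore genes (lower). They were 4 of 12 condensation genes (4 lower) and 3 of 14 replication genes (1 higher and 2 lower). The calls against nt in other fits held Tubb5, a beta-tubulin, higher by 0.60 with RLE scaling, 0.55 with only the siCdk1 and nt libraries, 0.51 with nt and Mock as 1 control and 0.60 with DESeq2 (adjusted p = 0.0336, 0.0367, 0.026 and 0.0225). They also held the dUTPase gene Dut, lower with only the siCdk1 and nt libraries and with DESeq2 (-0.77 and -0.69, adjusted p = 0.0353 and 0.0483), and Hmmr, a microtubule-associated protein of the spindle, lower with nt and Mock as 1 control (-1.32, adjusted p = 0.00829). In the fit over all libraries Tubb5 changed by 0.54 ± 0.18 (adjusted p = 0.067). The 16 tested spindle and kinesin genes had a median of -0.18 against nt (-0.36 to -0.0036 with 1 replicate left out, the lowest without replicate 3 and the highest without replicate 2), 0.20 against Mock and -0.02 against the other siRNAs. The median of 11 kinetochore and checkpoint genes was -0.49 against nt (-0.18 without replicate 3) and -0.16 against Mock, and that of 12 genes of chromosome condensation was -0.53 against nt and -0.12 against Mock. Top2a, the topoisomerase that untangles sister chromatids, changed by -0.52 ± 0.25 (adjusted p = 0.284), and the condensin gene Smc2 by -0.61 ± 0.25 (adjusted p = 0.174). Of 14 DNA replication genes 9 were negative with a median of -0.26 (-0.14 without replicate 1 and -0.37 without replicate 2), and the lowest adjusted p among those named by rule was that of Dut (-0.75 ± 0.23, adjusted p = 0.0542). An exception arose with the second control: Hmmr measured 149.4, 93.4 and 80.8 CPM in siCdk1 and 240.3 to 388.1 CPM in Mock, a fall of 1.58 on the log2 scale (adjusted p = 0.0023). Its nt libraries measured 283.1, 194.4 and 171.6 CPM (-0.99 ± 0.39, adjusted p = 0.166), and its siCdk1 mean was the lowest of the 33 siRNAs.

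Among the other CDKs, cyclins and CDK inhibitors, 2 of 6 tested genes were higher than in nt, beside 1.53% of all tested genes. The list median was 0.77 against nt, 0.49 without replicate 3, 0.19 against Mock and 0.15 against the other siRNAs. Cdkn1a encodes p21, an inhibitor of cyclin-dependent kinases that p53 induces. It measured 730.2, 669.6 and 666.8 CPM in siCdk1 and 383.0, 403.8 and 343.1 CPM in nt (0.87 ± 0.23, adjusted p = 0.0147). The Mock libraries spread from 253.8 to 799.9 CPM and overlapped siCdk1 (0.27, adjusted p = 0.607), and the siCdk1 mean ranked 12 of 33 siRNAs. Ccnd2, a D-type cyclin of G1, rose by 0.69 ± 0.17 over nt (adjusted p = 0.00687) and did not pass the test against Mock (0.40, adjusted p = 0.153). The related cyclin Ccnd1 measured 630.6, 249.2 and 444.5 CPM against 366.4, 194.4 and 196.1 CPM (0.86 ± 0.27, adjusted p = 0.0541). Cdkn1a was the one p53 target called of 14 tested (median 0.16, and 0.37 without replicate 3). Ccng1, another target, changed by -0.28 ± 0.18 (adjusted p = 0.453), and Mdm2, which encodes the ubiquitin ligase of p53, by 0.58 ± 0.35 (adjusted p = 0.438). Neither Cdkn1a nor Ccnd2 was called without replicate 3 or without the block.

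**Figure D4:**
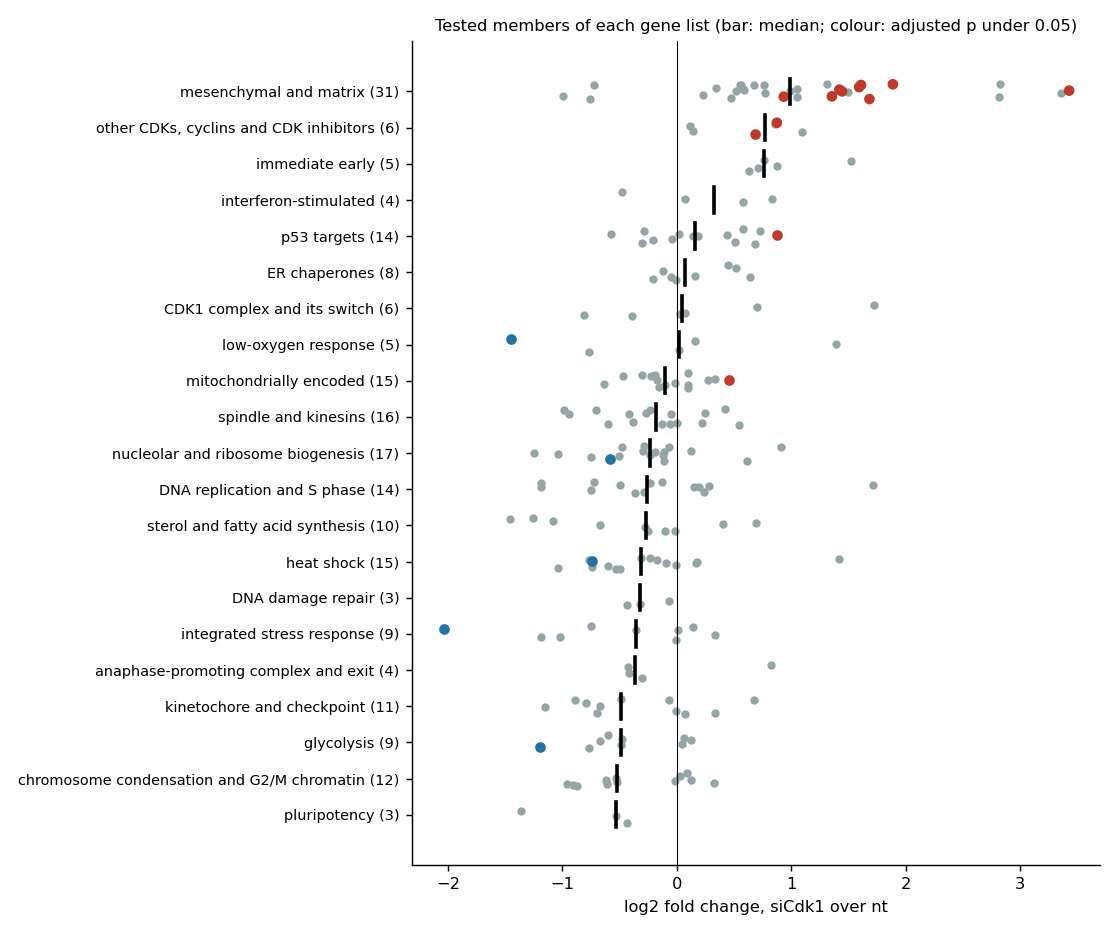
Log2 fold change of siCdk1 over nt (x axis) for the tested members of each gene list with at least 3 tested members (y axis, number tested in brackets), with a point per gene, a bar at the median and colour for an adjusted p below 0.05. The mesenchymal and matrix list has its median at 0.99 with 9 genes called, and the CDK1 complex list has its median at 0.05 with none called.

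The lower genes were led by Pgk1, the glycolytic phosphoglycerate kinase (chrX:106187100-106203699). It measured 680.4, 1293 and 666.8 CPM in siCdk1 and 1565, 2273 and 2026 CPM in nt, a log2 fold change of -1.20 ± 0.19 (SE, adjusted p = 1.02e-06). The groups did not overlap, but the Mock libraries lay at 951.2 to 1343 CPM, within reach of siCdk1 (-0.49, adjusted p = 0.147), and 25.5% of the 40-base words of Pgk1 near its 3′ end occur in copies of the gene. Pgk1 was the 1 called gene among 9 tested glycolysis genes (1.06% of all tested genes were lower), of which 6 were negative with a median of -0.49. Pkm and Ldha, the last steps of the pathway, changed by -0.49 ± 0.20 and -0.48 ± 0.19 (adjusted p = 0.166 and 0.176), and Aldoa by 0.05 ± 0.24 (adjusted p = 0.953).

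Bnip3, a mitophagy receptor induced by low oxygen, measured 248.9, 373.7 and 70.7 CPM in siCdk1 and 616.2, 688.0 and 457.5 CPM in nt. It fell by 1.45 ± 0.29 on the log2 scale against nt (adjusted p = 0.000425) and by 1.02 against Mock (adjusted p = 0.0339). The other 4 tested low-oxygen genes were not called, and the list median was 0.02 (-0.13 without replicate 3). Calu, a calcium-binding protein of the secretory pathway, measured 132.8, 218.0 and 161.7 CPM against 482.9, 358.9 and 384.0 CPM in nt (-1.24 ± 0.28, adjusted p = 0.0022). Every Calu value in siCdk1 was below every nt and Mock library, and the siCdk1 mean was the lowest of the 33 siRNAs. Dek, a chromatin protein, fell by 1.21 ± 0.30 (adjusted p = 0.00692), and Bclaf1, a nuclear protein linked to RNA processing, by 0.83 ± 0.21 (adjusted p = 0.00728). Bnip3, Calu, Dek and Bclaf1 were not called without replicate 3, and Calu was the 1 of them called without the block.

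Single members of other lists were also lower than in nt, beside 1.06% of all tested genes. They were Ncl, the nucleolar protein nucleolin (-0.59, adjusted p = 0.0221, 1 of 17 tested nucleolar genes), Cct8, a subunit of the cytosolic chaperonin (-0.74, adjusted p = 0.0178, 1 of 15 heat shock genes), and Mthfd2, a mitochondrial folate enzyme of the integrated stress response (-2.04, adjusted p = 0.0471, 1 of 9). None of these 3 passed the test against Mock (0.06, -0.09 and -1.30 with adjusted p = 0.904, 0.899 and 0.339). mt-Co3, a mitochondrially encoded subunit of cytochrome oxidase, rose by 0.45 ± 0.12 against nt (adjusted p = 0.0193, 1 of 15 such genes, beside 1.53% higher over all tested genes) and had a log2 fold change of -0.10 against Mock (adjusted p = 0.726). It shares 99.8% of its 40-base words with the pseudogene Gm28437, which was also called higher, so that the counts of this pair are uncertain. Ncl, Cct8, Mthfd2 and mt-Co3 were not called without the block or without replicate 3.

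Some of the lower genes belong to families whose members share sequence. Of the 32 lower genes, of which 31 were found in the annotation, 10 are pseudogenes and 16 share at least 25% of their 40-base words with another gene. Of the 46 higher genes 2 and 6 do, and over all tested genes the shares are 16.2% and 20.8%. Gm5611, Gm14681 and Gm17060 are copies of Npm1, the nucleolar protein nucleophosmin, and were lower by 0.86, 0.86 and 0.82 (adjusted p = 0.00113, 0.00113 and 0.00166). Npm1 itself changed by -0.29 ± 0.14 (adjusted p = 0.286). The authors' counting could have divided reads among such copies, so the family was summed, at 12440 ± 882 CPM in siCdk1, 19330 ± 800 CPM in nt (SD, n = 3 each) and 16760 ± 2238 CPM in Mock (SD, n = 5). Copies of Gapdh (Gm12286 and Gm5069 among those called) summed to 1255 ± 178 CPM in siCdk1, 2364 ± 300 CPM in nt and 1202 ± 366 CPM in Mock, so that nt lay above both other groups. The calls of the Npm1 copies were lost without the block, and those of Gm5611, Gm14681, Gm12286 and Gm5069 without replicate 3. Rplp0, a ribosomal stalk protein, measured 630.6, 825.4 and 606.2 CPM against 1216, 1211 and 1217 CPM in nt (-0.84 ± 0.18, adjusted p = 0.00127) and overlapped Mock (626.9 to 1124 CPM). It was not called without replicate 3.

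A family of repeat-derived transcripts was low in siCdk1 against both controls, and it was grouped after its values were seen. It consists of 10 annotated genes in a cluster at chr9:3000282-3038316 (GRCm38), with Gm26870, a lincRNA on the minus strand, and 9 genes on the plus strand, together with Gm10800 and Gm10801 on chromosome 2 and Gm21738 on chromosome 14, which share 40-base words with the cluster. The counts of the 12 members other than Gm26870, which share 27.7% to 99.4% of their 40-base words with other genes, cannot be assigned to single copies. Gm26870 shares 0% of its own, but its exons overlap 6 of the plus-strand genes on the opposite strand. It measured 5808, 3504 and 4536 CPM in siCdk1, 10360, 7747 and 8374 CPM in nt, and 9419 to 16340 CPM in Mock. The siCdk1 libraries were below every control library. The log2 fold change was -0.94 ± 0.19 against nt (adjusted p = 0.00048) and -1.37 against Mock (adjusted p = 2.48e-10). Gm10801 was 464.7, 311.5 and 394.0 CPM in siCdk1, 682.8, 807.6 and 866.0 CPM in nt and 1342 to 2815 CPM in Mock (-1.03 and -2.23, adjusted p = 0.00728 and 6.35e-16). Neither was called against nt without the block, and of the 4 family members called against nt (Gm26870, Gm10800, Gm10801 and Gm10722) only Gm26870 was called without replicate 3.

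The sum over the 13 family members was 9890, 6977 and 8467 CPM in siCdk1, 17590, 13250 and 16430 CPM in nt and 20150 to 36090 CPM in Mock. Of the 13 tested genes 4 were lower than in nt (1.06% of all tested genes were), 13 lower than in Mock (1.99%) and 11 lower than in the other siRNAs (0.73%). Members share sequence or, for Gm26870, overlap others on the opposite strand, and so are not separate observations. Across the 95 other siRNA libraries the sum ran from 4464 to 50110 CPM with a median of 20530 CPM, and siCdk1 had the second lowest mean of the 33 siRNAs. The untransfected time course had 17450 CPM at Day00 and 9756 CPM at Day06. The 3 nt libraries were themselves below the median of the other siRNAs.

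**Figure D5:**
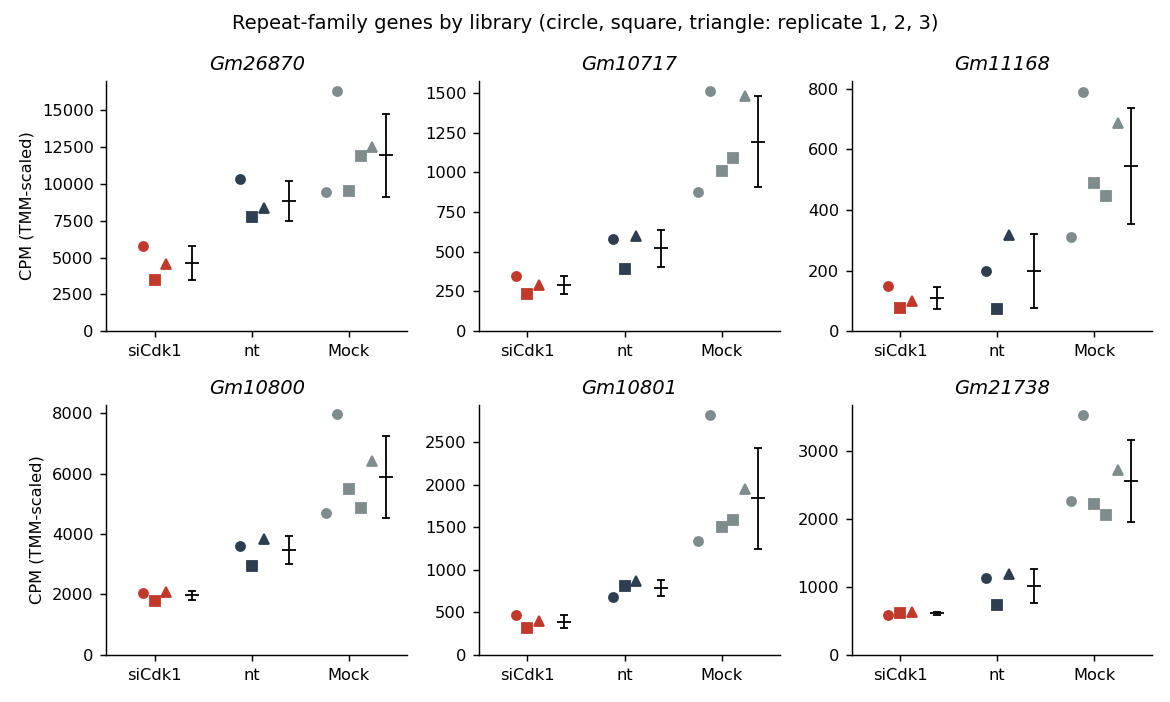
Levels in CPM (y axis, linear and starting at 0) of repeat-family genes in each siCdk1, nt and Mock library (x axis), with a point per library, its shape the replicate and a bar at the group mean. For Gm26870 the siCdk1 libraries lie at 3504 to 5808 CPM, the nt libraries at 7747 to 10360 CPM and the Mock libraries at 9419 to 16340 CPM.

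Against Mock, 100 genes (3.32%) differed, 40 of them higher (1.33%) and 60 lower (1.99%) in siCdk1, and 502 had an unadjusted p below 0.05. The siCdk1 libraries are common to this comparison and the one with nt, so the lists are not independent. Of the 46 genes higher than nt, 18 (39.1%) were also higher than Mock, which is 45.0% of the 40, and of the 32 lower than nt, 11 (34.4%) were also lower than Mock, 18.3% of the 60. No gene was called in opposite directions. Genes higher than both controls included Grem1, Sparc, Cd44, Timp2, Cald1, Lpp, Thy1, Flna, Actg1, Nid1, Thbs1 and Phldb2, the last encoding a microtubule-anchoring protein at adhesion sites. Ifitm3, an interferon-induced membrane protein, was higher than Mock (1.01, adjusted p = 0.0171) and not called against nt (0.58, adjusted p = 0.238), and it was the 1 called of 4 tested interferon-stimulated genes. Manf, a secreted ER stress protein, was higher than Mock by 1.65 (adjusted p = 0.0217). mt-Nd4l and mt-Atp8, mitochondrial subunits of complex I and ATP synthase, were lower than Mock by 1.32 and 1.49 (adjusted p = 3.33e-06 and 0.00444). mt-Nd4l shares 98.8% of its 40-base words with the pseudogene Gm10222, so that its count is uncertain. Without the block 39 genes differed from Mock, and without replicate 3 there were 25. The balance turned with no filter on low counts, where 29 of 43 called genes were higher and 14 lower.

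The contrast with the equally weighted mean of the 32 other siRNAs uses neither control. It called 94 genes (3.12%), 72 higher (2.39%) and 22 lower (0.73%), and 428 had an unadjusted p below 0.05. All 3 contrasts called the same 18 genes higher, namely Acta2, Actg1, Cald1, Cd44, Cdh11, Col1a1, Flna, Grem1, Lpp, Nid1, Phldb2, Prl2c2, Reep3, Sparc, Tcf4, Thbs1, Thy1 and Timp2. They called 7 genes lower, namely Calu, Gm10240, Gm10722, Gm10800, Gm10801, Gm26870 and Rps12-ps6. Of the 31 mesenchymal genes 10 were higher than in the other siRNAs, with a median of 0.75 beside 0.03 for all tested genes. Besides those named above they included Twist2, a mesenchymal transcription factor (0.95 ± 0.27, adjusted p = 0.0225, the highest mean of the 33), Timp1 (0.85 ± 0.24, adjusted p = 0.0199), the tropomyosin gene Tpm1 (0.72 ± 0.22, adjusted p = 0.043) and Cnn1 (2.40 ± 0.54, adjusted p = 0.0014). Jun, an immediate early gene, was 1.23 ± 0.37 higher than in the other siRNAs (adjusted p = 0.043), and all 5 tested immediate early genes were positive against nt (median 0.76) with 0 called. Pgk1 and Bnip3 did not pass here (-0.44 and -0.74, adjusted p = 0.0858 and 0.0717).

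Epithelial and pluripotency genes were close to the limit of counting. Of 35 pluripotency genes 3 were tested and 0 called against nt (median -0.53), and of 22 epithelial genes 1 was tested, Cd24a (0.02 ± 0.20, adjusted p = 0.972). The E-cadherin gene Cdh1 had a count in 1 of the 3 siCdk1 libraries. Nanog, a pluripotency transcription factor, had 2 counts in each siCdk1 library, 1 count in 1 of the 3 nt libraries and 0 in all Mock libraries. In the second fit it was higher than in the other siRNAs (2.64 ± 0.70, adjusted p = 0.0111, the highest mean of the 33) but not called against nt (2.33 ± 1.28, adjusted p = 0.404) or Mock (adjusted p = 0.185), and the ratio to nt of 6.85 had a counting interval of 0.831 to 315.1. Against Mock it was at least 2.02-fold higher by the floor of 3 counts. The summed level of the 35 pluripotency genes went the other way against nt, at 514.4 to 794.2 CPM in siCdk1 and 822.6 to 1049 CPM in nt. Mock ran from 432.9 to 893.6 CPM, and this sum was not tested.

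All 8 fibroblast markers had a count somewhere in the 127 libraries. So did all 4 epithelial, 6 pluripotent, 4 muscle, 4 neural and 3 adipocyte markers, so presence alone cannot bear out the fibroblast label. The fibroblast markers held 472, 380 and 386 counts in the siCdk1, nt and Mock libraries in turn. Their summed level was 1693 to 2274 CPM in siCdk1, 1332 to 2098 CPM in nt and 1216 to 2825 CPM in Mock. These ranges overlapped. Markers of other cell types had few counts, summed over the siCdk1, nt and Mock libraries in turn, with 2, 0 and 1 counts for 6 macrophage genes, 5, 4 and 2 for 4 endothelial genes, 8, 1 and 5 for 4 muscle genes, 1, 2 and 0 for 3 adipocyte genes and 0 for the globin genes. The muscle counts came from Des and Acta1, which contractile fibroblasts can also express. Of the neural markers, Tubb3, a neuronal tubulin gene, had 5, 5 and 7 counts in siCdk1, 4, 5 and 15 in nt and 1 to 5 in Mock, and Sox10 was at 0 in all of these libraries. The 4 epithelial markers had 11, 26 and 19 counts and the 6 pluripotent markers 13, 16 and 16. The epithelial marker sum was 30.3 to 66.4 CPM in siCdk1, below nt (89.7 to 149.9 CPM) and within the range of Mock (24.8 to 171.7 CPM). It rests on few counts and was not tested. Library composition was compared with nt and Mock together, in a design whose smallest p of 0.0208 would not pass for a single measure once adjusted over 4. Ribosomal protein genes took 4.51 ± 0.59% of counts in siCdk1, 4.66 ± 0.61% in nt (SD, n = 3 each) and 4.63 ± 0.58% in Mock (two-sided exact permutation test within replicates, p = 0.375, adjusted p = 0.604 over 4 measures). Mitochondrial genes took 24.8%, 24.5% and 25.9% (exact permutation p = 0.583) and histone genes 0.328%, 0.332% and 0.377% (exact permutation p = 0.25).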

How the data were processed

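Bulk CEL-Seq2 libraries were sequenced in 3 pools, 1 per replicate, and column names gave the condition of each library. As described by the study, the authors aligned reads with Bowtie2 to mm10 and ran the CEL-Seq2 pipeline with GENCODE vM13. The deposited table holds unnormalized UMI counts per gene. The deposited log2 values are log2 CPM that the authors normalized with scran after regressing the batch, and these relative levels were used in 1 alternative. Here 127 of 129 libraries were used. A Mock library with 6403 counts and a siMtf1 library with 7981 were left out because the log2 table has no column for them. Its single Mock column of replicate 3 was taken to be the deeper library.

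The counts were tested with edgeR 4.0.16 (R 4.3.3) by quasi-likelihood, with TMM scaling (factors 0.825 to 1.39), filterByExpr by condition, a term per condition and the replicate as a block, over all 127 libraries (83 residual degrees of freedom, common dispersion 0.0158). P-values were adjusted by Benjamini-Hochberg over the 3013 tested genes, and 0.05 was the threshold. Each standard error is the fold change divided by the root of the F statistic. Listed genes that missed the filter entered another fit, of 3318 genes. Ratios of few counts have exact 95% intervals, and intervals and floors cover counting error only. Libraries held 38925 to 143156 counts in siCdk1, nt and Mock. Replicate pairs differed by more than sampling noise (chi-square per gene 1.35 to 2.41). Per the labels, a replicate number marks a shared sequenced pool, and deviations of siCdk1 and nt libraries of the same number correlated at 0.0993, 0.0498 and 0.184.

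The genes named are Cdk1, the 12 of smallest p in each direction against nt with the same sign in all replicates, genes also called against Mock or the other siRNAs (at most 12 per direction), and, for each list, called or most abundant members. Further called genes were named after their values were seen. The comparison, the lists and the rule were chosen with earlier results of these data known. Positions and gene copies are from GENCODE on GRCm38, and promoters from RefSeq GRCm38.p6. The alternatives used DESeq2 1.42.0 and limma 3.58.1, other scaling and filters, other sets of libraries and each replicate left out. The procedure was run on simulated data drawn from its own fitted model, which cannot check that model.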

Additional observations from a re-analysis of the deposited data

Results flagged for a closer look

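Values were checked for a library that stood apart from the other 4 of the Mock group. Of 58 values, 4 did by Dixon's test, and chance gives about 1 in 20. The Gm10240 level was 438.7 CPM in 1 Mock library and 198.6 to 253.8 CPM in the others. Ptgs1 was at 0 CPM in 1 Mock library and 24.8 to 29.8 CPM in the others, where each value rests on 1 or 2 counts. The epithelial list summed to 877.4 CPM in 1 Mock library against 1090 to 1167 CPM. The integrated stress response list summed to 2047 CPM in 1 Mock library against 1133 to 1316 CPM. The groups of 3 libraries were not checked in this way.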

How the results depend on the processing

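Of the 78 genes called against nt, 9 were called in each of 10 alternatives based on counts: Grem1, Sparc, Timp2, Cd44, Lpp, Prl2c3, Tcf4 and Thy1 higher, and Pgk1 lower. Of the 36 named genes tested, 0 changed sign in any alternative, and 20 lost their call without the replicate block, 25 without replicate 3 and 33 with limma. The number of genes called against nt was 24 without the block, 31 with no filter on low counts, 128 with nt and Mock as 1 control, 3 with limma on the deposited log2 values (Sparc, Grem1 and Timp2) and 14 to 51 with 1 replicate left out. Against Mock it was 39 without the block, 43 with no filter, 35 with only the first Mock column, 18 with limma and 25 to 96 with 1 replicate left out. Against the other siRNAs it was 53 without the block, 15 with limma and 45 to 72 with 1 replicate left out; with no filter 91.8% of 110 calls, with DESeq2 84.9% of 93 and with limma 46.7% of 15 were higher, against 76.6% as reported. The mesenchymal list had 2 genes called higher than nt with limma and 3 to 7 with 1 replicate left out. The log2 change of Cdk1 ranged from -0.31 to 0.17 with 1 replicate left out, the positive value arising without replicate 2. The causes were not tested. Depth limits the CDK1 complex, epithelial and pluripotency lists, of whose 25, 22 and 35 members 6, 1 and 3 had enough counts to test.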
